A study of Mus musculus with 9 samples.

Results

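The genes described here are 10 that mark heart muscle cells (cardiomyocytes), measured on arrays of cultured aortic valves from newborn mice: Myh6, Myh7, Tnnt2, Tnni3, Actc1, Myl7, Myl2, Ttn, Nppa and Ryr2. They were taken by name, as the probe sets that the array's annotation assigns to exactly 1 of these symbols, and they serve as a gauge of heart muscle that stays attached to a dissected valve. All 10 were found, each through 1 probe set, among 19934 genes with a probe set of 1 symbol. The valves came from C57BL/6J pups on postnatal day 1, and the valves of 5 to 6 pups were pooled for each sample. Pools were cultured on floating filters for 48 h in medium with serum. Pools received DMSO alone at 0.001%, all-trans retinoic acid (ATRA) at 1 µmol/L in DMSO, or LE540, an antagonist of the retinoic acid receptors, whose dose and vehicle the labels do not give. Each group had 3 pools and 1 array per pool, which the labels call biological replicates. The sex of the pups is not given.

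Cardiomyocytes contract by sliding thin filaments of actin, gated by the troponins, along thick filaments of myosin heavy and light chains, with titin as the elastic scaffold between them. Calcium released through the ryanodine receptor starts each beat, and the muscle of the atria also secretes natriuretic peptide. A mature aortic valve leaflet consists of interstitial cells under an endothelial sheet and holds hardly any heart muscle, but its root is anchored in the wall of the left ventricular outflow tract. Retinoic acid acts in the developing heart through nuclear receptors, and one of its known roles there is in setting atrial and ventricular identity.

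Values are array intensities on a linear scale after robust multi-array averaging (RMA), and changes are differences of log2 intensity. Array medians lay between 123.6 and 128.1. Every pair of arrays correlated at 0.956 to 0.991 over 23397 probe sets with a listed gene. LE540 replicate 1 stood apart: on the first principal component, which held 32.5% of the variance, it lay at 63.7 and the other 8 arrays between -21.5 and 13.9. Intensities of a 15-gene list of interstitial cells, with Postn, Col1a1 and Vim, were summed for each array. The sum was 35290.1 to 43236 in DMSO, 42077 to 46548 in ATRA and 24997 to 39829.8 in LE540. LE540 replicate 1 had the lowest sum. Without another tissue for reference, these sums do not test the identity of the tissue. Levels of different probe sets cannot be set against each other, so each gene is compared with itself across arrays. In a pool of tissue, fewer cardiomyocytes and less RNA per cardiomyocyte cannot be told apart.

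None of the 10 genes was called different between treatments at the threshold of the study's design, an adjusted p under 0.1. With ATRA against DMSO 9 of the 10 had lower group means on the log2 scale and 1 (Nppa) stood at 0.00, with a median of -0.32 and a range of -0.85 to 0.00. LE540 against DMSO gave 5 higher and 5 lower, with a median of -0.04. ATRA against LE540 gave 2 higher and 8 lower, with a median of -0.47. These medians turned on single pools. That for ATRA against DMSO was -0.06 without DMSO replicate 1 and -0.66 without ATRA replicate 2, that for LE540 against DMSO 0.41 without DMSO replicate 1 and -0.29 without DMSO replicate 2, and that for ATRA against LE540 -0.18 without ATRA replicate 3 and -0.93 without ATRA replicate 2. Without LE540 replicate 1, the array that stood apart, the median was 0.20 for LE540 against DMSO and -0.71 for ATRA against LE540, again with 0 genes called; Myh6 (0.21), Actc1 (0.06) and Ttn (0.24) then lay above 0 and Myh7 (-0.06) below it for LE540 against DMSO. The 3 comparisons share their arrays pairwise, so their values for one gene are not independent. Over all probe sets tested the medians were -0.01, 0.02 and -0.03, and 48.5%, 54.7% and 43.1% of them were higher.

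The test was limma with Benjamini-Hochberg adjustment over all 23397 probe sets. It called 19 probe sets for ATRA against DMSO (0.0812%), 7 for LE540 against DMSO (0.0299%) and 141 for ATRA against LE540 (0.603%), and 0 of the 10 genes in each. In limma's moderated F test of any difference among the groups, 67 probe sets (0.286%) and 0 of the 10 genes were called. At an unadjusted p under 0.05 the counts of cardiomyocyte genes were 0, 0 and 1, out of 1099, 2060 and 2231 probe sets, and the F test had 1 of 1931. That 1 gene was Myl7 both times. No gene of the 10 had groups without overlap in any comparison, against 11.3%, 12.6% and 11.5% of all probe sets. Over all probe sets, same-numbered pools deviated together weakly for ATRA and DMSO and for ATRA and LE540, though the labels give no pairing. Within these pairs Myh7 and Myl7 were lower with ATRA than with DMSO in 3 of 3 (2 of the 10 genes, against 16.2% of all probe sets). All others of the 10 were higher with ATRA than with DMSO in pair 2. Pairs 1 to 3 differed by -2.36, 1.22 and -1.40 for Myh6 and by -2.27, 1.48 and -0.93 for Ttn, so the pairs were not alike for these genes. Myh7, Myl7, Tnni3 and Myl2 were lower with ATRA than with LE540 in 3 of 3 (4 of the 10, against 19.3%). With the replicate number as a block, the lowest adjusted p among the 10 was 0.871 and 0.19 in these comparisons, and 0 were called. Standard errors of 0.21 to 0.70 gave 95% intervals that reached 0.48 to 1.59 log2 units to either side, and for 5 of the 10 genes this half-width was over 1 log2 unit, more than 2-fold. Each p here sets a difference of group means against the spread between pools of a group.

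**Figure D1:**
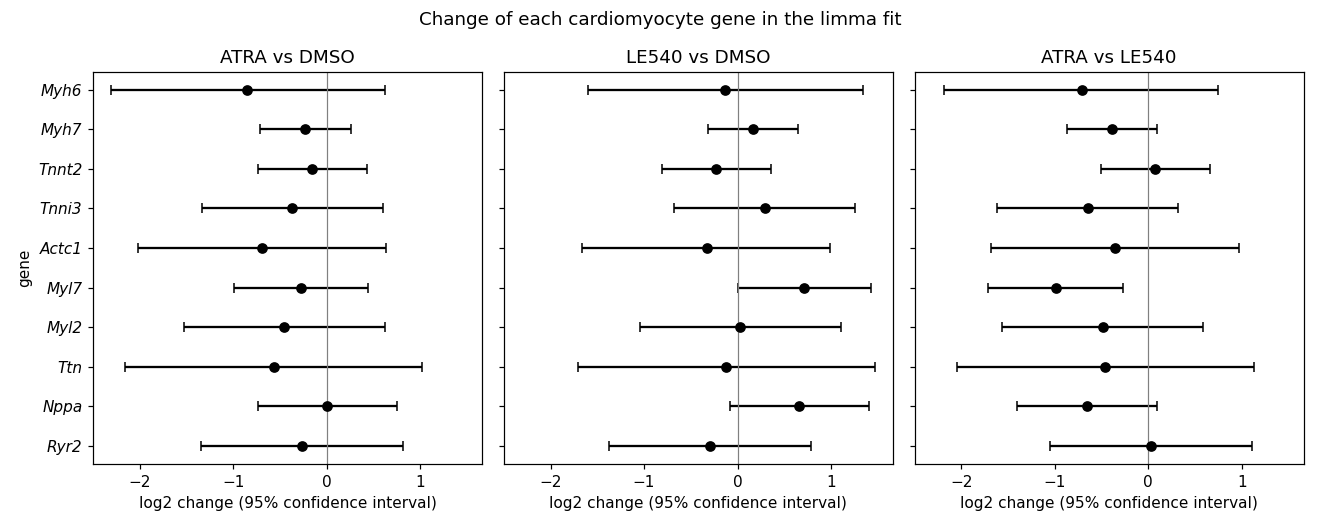
Log2 change of each cardiomyocyte gene (rows) in the 3 comparisons (panels), with ATRA or LE540 against DMSO and ATRA against LE540; points are limma estimates from 3 arrays a group and bars their 95% confidence intervals. The intervals of Myh6 and Ttn span over 2 log2 units in each panel, and the only interval that leaves out 0 is that of Myl7 for ATRA against LE540, from -1.71 to -0.27.

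Among the genes of the thin filament, Actc1, the cardiac alpha-actin, had intensities of 5960.0, 1838 and 3381 in DMSO replicates 1 to 3. It stood at 1461, 4521 and 1328 in ATRA and at 1525, 3128 and 3882 in LE540. The highest pool was 3.24, 3.4 and 2.55 times the lowest in DMSO, ATRA and LE540. DMSO replicate 3 and LE540 replicate 2 also stood well above the lowest of their groups, and the ranges of the groups overlapped. The change with ATRA was -0.69 (SE 0.58, 95% interval -2.02 to 0.63, limma adjusted p = 0.999), and with LE540 -0.33 (SE 0.58, adjusted p = 0.881). The ATRA value was -0.27 without DMSO replicate 1 and -1.26 without ATRA replicate 2. Actins are near-identical copies, so part of this signal may come from Acta1 or Acta2 transcripts.

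Tnnt2, the troponin that ties the complex to tropomyosin, had the smallest ratio of highest to lowest array, 1.83. DMSO pools had 9589.8, 6090.3 and 9573 intensity units, ATRA pools 5965, 8026 and 8443, and LE540 pools 5239, 7026 and 9449. The lowest pools of their groups were DMSO replicate 2, ATRA replicate 1 and LE540 replicate 1, and the groups overlapped. The change with ATRA was -0.16 (SE 0.26, 95% interval -0.74 to 0.43). Tnni3, the cardiac inhibitory troponin that replaces the slow skeletal form around birth, was wider. It had 1588, 681 and 972 in DMSO, 768, 1326 and 483 in ATRA and 842, 1569 and 1441 in LE540. Its lowest array was ATRA replicate 3 and its change for ATRA against LE540 was -0.65 (SE 0.43, limma adjusted p = 0.684), or -0.30 without ATRA replicate 3 and -1.03 without ATRA replicate 2.

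The myosin heavy chains differed from each other. Myh6, the fast alpha chain that takes over in the mouse ventricle after birth, had 778, 138 and 335 in DMSO, 152, 322 and 127 in ATRA and 186, 269 and 544 in LE540. The top of these 9 values was 6.15 times the lowest, and both DMSO and LE540 contained pools within the ATRA range. The change with ATRA was -0.85 (SE 0.65, 95% interval -2.31 to 0.62, limma adjusted p = 0.999). It ranged from -0.23 without DMSO replicate 1 to -1.48 without DMSO replicate 2. With all arrays it was the largest of the 10 in that comparison. Without DMSO replicate 1, Myl7 (-0.37), Actc1 (-0.27) and, in the other direction, Ryr2 (0.26) lay further from 0. Myh7, the slow beta chain of the fetal ventricle, lay near the array median, at 177, 126 and 128 in DMSO, 131, 116 and 117 in ATRA and 215, 122 and 152 in LE540. For Myh7 the highest array was LE540 replicate 1, which ranked 6 of 9 for Myh6. Both chains are encoded side by side with very similar sequences, and probes can pick up signal from the other.

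Of the myosin light chains, Myl2, the ventricular regulatory chain, had 4646, 2362 and 2478 in DMSO, 2431, 4071 and 1065 in ATRA and 2526, 4273 and 2703 in LE540. ATRA replicate 3 was the lowest and DMSO replicate 1 the highest, and the change was -0.46 with ATRA (SE 0.47) and 0.03 with LE540 (SE 0.47). Myl7, the atrial regulatory chain, behaved differently from all the others. Its intensities were 93.1, 116 and 112 in DMSO and 78.7, 112 and 77.1 in ATRA, but 186, 274 and 104 in LE540. LE540 replicates 1 and 2 were above every other array, and LE540 replicate 3 was below 2 of the DMSO pools and 1 of the ATRA pools. The mean was 107 ± 12.2 (SD, n = 3) in DMSO, 89.2 ± 19.6 in ATRA and 188 ± 84.8 in LE540.

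Myl7 was the gene of the 10 with the lowest p in 2 of the comparisons. For LE540 against DMSO the change was 0.71 (SE 0.31, 95% interval 0.00 to 1.43, limma adjusted p = 0.564); it was 0.39 without LE540 replicate 2 and 1.08 (adjusted p = 0.105) without LE540 replicate 3. For ATRA against LE540 it was -0.99 (SE 0.31, 95% interval -1.71 to -0.27, limma adjusted p = 0.351), and this did not pass. Without LE540 replicate 3 the same difference was -1.36 (SE 0.22, adjusted p = 0.069) and passed the threshold, so the call turned on 1 pool. Without LE540 replicate 1 it was -0.94 (SE 0.37, adjusted p = 0.639), and without LE540 replicate 2 -0.66 (SE 0.27, adjusted p = 0.442). In 7 of the 9 arrays Myl7 lay under the array median, where how far the signal stands above background is unknown.

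Titin (Ttn), the giant spring of the sarcomere, had 597, 154 and 198 in DMSO, 124, 430.2 and 104 in ATRA and 148, 196 and 492 in LE540. A single high pool stood out in each group, DMSO replicate 1, ATRA replicate 2 and LE540 replicate 3, and only 8.01% of the sum of squares of log2 values lay between groups. Ryr2, the cardiac ryanodine receptor, had the same 3 high pools: 398, 119.9 and 147 in DMSO, 120.1, 248 and 134 in ATRA and 124, 131 and 234 in LE540. Its share between groups was 5.26%, the lowest of the 10, and its changes were -0.27 with ATRA and -0.29 with LE540 (SE 0.47 each).

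Nppa, the atrial natriuretic peptide, a hormone of the atria and of the fetal ventricle, had 127, 114 and 161 in DMSO, 154, 162 and 94.3 in ATRA and 207, 135 and 329.5 in LE540. LE540 replicates 1 and 3 were above every other array, whereas replicate 2 lay within the DMSO range. The change with LE540 was 0.66 (SE 0.33, 95% interval -0.08 to 1.40, limma adjusted p = 0.591) and that with ATRA 0.00 (SE 0.33). The LE540 value was 0.33 without LE540 replicate 3 and 0.98 without LE540 replicate 2. Myl7 and Nppa thus had the 2 largest changes with LE540, in pools that were partly shared. LE540 replicate 1, the array that stood apart, was above every DMSO and ATRA pool for both. Replicate 2 was the highest for Myl7 and the lowest of its group for Nppa.

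**Figure D2:**
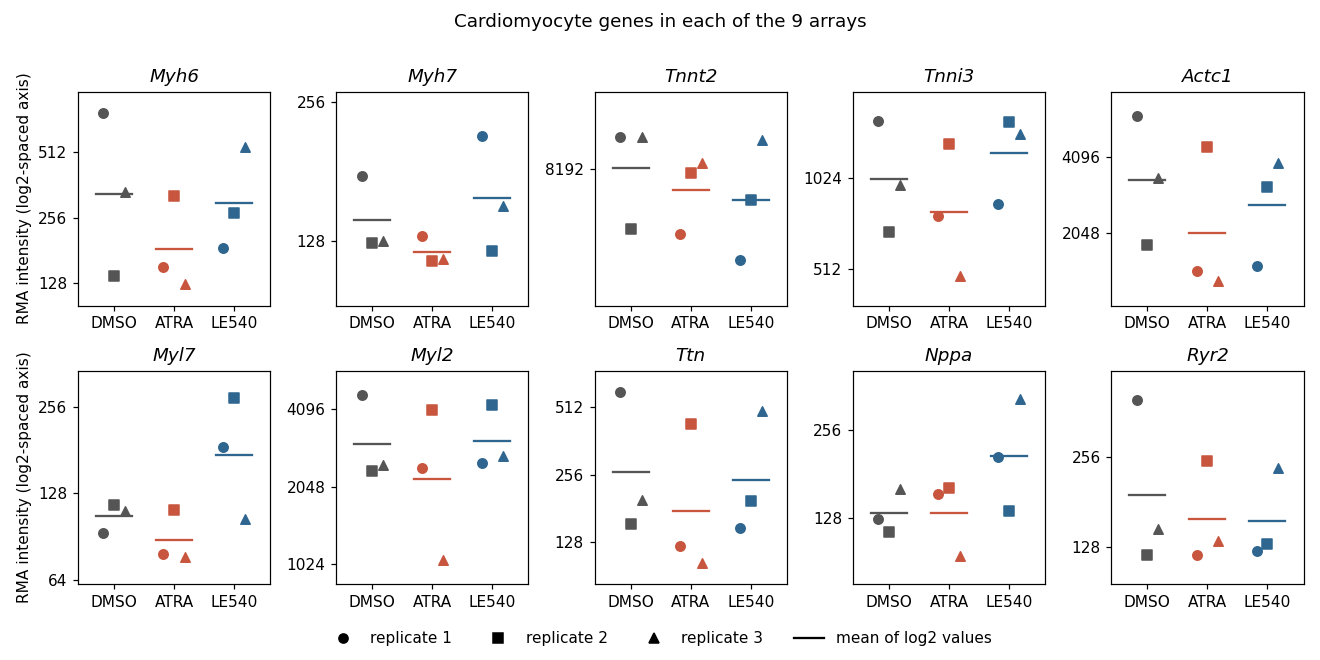
Intensity of each of the 10 genes on a log2-spaced axis in every array, by treatment (x axis); each marker is 1 pool, its shape gives the replicate number, and the line is the group's mean of log2 values. The circle of DMSO, the square of ATRA and the triangle of LE540 stand above the other pools of their group for Myh6, Actc1, Ttn and Ryr2, and the panels of Myl7, Nppa and Myh7 show other orders.

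For 9 of the 10 genes, all but Myl7, more of the variation lay between pools of one treatment than between treatments. The same held for most probe sets tested, whose median share between groups was 25.6%, so this count does not set the 10 genes apart. The ratio of the highest to the lowest array ran from 1.83 for Tnnt2 and 1.86 for Myh7 to 5.75 for Ttn and 6.15 for Myh6. Its median over the 10 genes was 3.52, against 1.53 over all probe sets tested, and 8 of the 10 (80%) ranged over more than 3-fold, against 1711 of all (7.31%). The SD within groups had a median of 0.65 log2 units over the 10 genes and 0.19 over all. For Ttn it was 1.03, at percentile 99.6 of all probe sets, for Myh6 0.95 and for Actc1 0.85. A median of 16.4% of the sum of squares lay between groups for these genes and of 25.6% for all probe sets. Myl7 (56.2%) and Nppa (39.6%) had the largest shares between groups.

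The high and low pools were largely shared. DMSO replicate 1 was the highest DMSO pool for 8 of the 10 genes (33.7% of all probe sets) and DMSO replicate 2 the lowest for 9 (36.9%). In ATRA, replicate 2 was the highest for 8 (30.1%) and replicate 3 the lowest for 7 (31.8%). LE540 replicate 3 was the highest for 6 (26.8%) and replicate 1 the lowest for 7 (30%). The high pools carry a different replicate number in each group. Myh6, Actc1, Ttn and Ryr2 had all 3 high pools in common, 40% of the genes against 2.48% of all probe sets; these pools were picked after the values were seen. The mean of centred log2 values over the 10 genes was 0.69, -0.41 and 0.03 in DMSO, -0.45, 0.34 and -0.73 in ATRA and -0.15, 0.18 and 0.51 in LE540. As group means this is 0.10 ± 0.56, -0.28 ± 0.55 and 0.18 ± 0.33 (SD, n = 3), with partial overlap. ATRA replicates 1 and 3 lay below every DMSO and LE540 pool, and ATRA replicate 2 lay within the range of both groups.

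Pairs of the genes followed each other to different degrees across the 9 arrays. Of 45 pairs 41 had a positive Pearson correlation, 10 were over 0.8 and the median was 0.44. Within groups, after each group's mean was taken out, the median was 0.39. The arrays share treatments and normalization, and these values are descriptions. Against the mean of the other members, Myh6 reached 0.94, Tnni3 0.93, Actc1 and Ttn 0.92, Ryr2 0.78 and Myl2 0.76. The looser genes were Tnnt2 (0.48), Nppa (0.41), Myh7 (0.25) and Myl7 (0.09). Myl2 followed Tnni3 (0.90) more closely than Ttn (0.70), and both Myl2 and Tnni3 were high in LE540 replicate 2 where Ttn was not. Tnnt2 and Myl7 ran against each other (-0.37).

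Promoter sequences are shown for a gene close to the rest (Actc1), the gene farthest from them (Myl7), and 3 others with a motif near the start, since genes that moved together and genes that did not could be compared by sequence. Stretches of 120 bases that end just before the RefSeq start site (GRCm38.p6) read as follows, 5′ to 3′ on the gene's strand; capitals mark the motifs. The stretches lie at chr2:114052876-114052995 (minus strand) for Actc1, chr11:5898783-5898902 (minus) for Myl7, chr4:148000602-148000721 (plus) for Nppa, chr1:135836214-135836333 (plus) for Tnnt2 and chr13:12106946-12107065 (minus) for Ryr2.
Actc1: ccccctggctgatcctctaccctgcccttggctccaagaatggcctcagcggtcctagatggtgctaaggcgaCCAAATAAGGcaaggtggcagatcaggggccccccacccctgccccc
Myl7: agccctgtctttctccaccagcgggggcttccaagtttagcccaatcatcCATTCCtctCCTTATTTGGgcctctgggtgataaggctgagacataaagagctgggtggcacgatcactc
Nppa: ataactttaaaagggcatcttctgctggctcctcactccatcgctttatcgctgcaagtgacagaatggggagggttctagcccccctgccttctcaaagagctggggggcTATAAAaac
Tnnt2: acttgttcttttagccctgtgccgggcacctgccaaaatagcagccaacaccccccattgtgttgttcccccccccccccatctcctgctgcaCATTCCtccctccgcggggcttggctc
Ryr2: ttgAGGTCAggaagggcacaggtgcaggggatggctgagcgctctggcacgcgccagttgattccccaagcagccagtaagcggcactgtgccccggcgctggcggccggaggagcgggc
Motifs were searched in longer windows of 300 bases, from 250 before to 50 after the start, and some matches named below lie outside the stretches printed. Capitals are the CArG box, the binding element of serum response factor, in Actc1 and Myl7, the M-CAT element CATTCC, bound by TEAD factors, in Myl7 and Tnnt2, the TATA element TATAAA in Nppa and the retinoid half-site AGGTCA in Ryr2.

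The CArG box lay at -47 to -38 from the start in Actc1 and at -61 to -52 in Myl7, and 1.63% of 32851 such 300-base windows in the promoter table held one on either strand. These were the only 2 of the 10 genes with it, and their correlations with the other members were 0.92 and 0.09. CATTCC was found in Myh6, Myh7, Tnnt2, Myl7 and Ttn (14.7% of all windows), and TATAAA in Myh6, Actc1, Myl2 and Nppa (13.6%). Only in Nppa did TATAAA lie before the start on the gene's own strand (-9 to -4). It lay after the start in Myh6 (2 to 7) and Actc1 (34 to 39), and on the opposite strand in Myl2 (-216 to -211 of window 2). The motif AGATAA, known to bind Gata factors, stood in Tnnt2 and Myl2 (11.2%), and AGGTCA in Myl2 and Ryr2 (16.3%). A MEF2 box was in Ttn (3.19%). All motifs were searched on both strands, with overlaps kept, over 13 windows of the 10 genes.

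Genes outside the 10 that followed them most closely were taken as the 10 named genes with the highest Pearson correlation to the mean centred log2 value over the 9 arrays. They were Rbm20, the splicing regulator of titin (r = 0.947), Cyp4b1 (0.93), Tnnc1, the calcium-binding troponin (0.927), Actn2, the Z-disc alpha-actinin (0.922), Smyd1, a muscle methyltransferase (0.922), Casq2, the calcium buffer of the sarcoplasmic reticulum (0.913), Mylk3, the cardiac myosin light chain kinase (0.909), Kcnj5, an atrial potassium channel subunit (0.897), Hopx (0.897) and Pde1c (0.884). Casq2 had the widest range, at 540.3, 96.4 and 194 in DMSO, 106, 198 and 82.9 in ATRA and 266, 219 and 566 in LE540. Rbm20 had a ratio of only 1.76 between its highest and lowest array. Its highest pools were DMSO replicate 1, ATRA replicate 2 and LE540 replicate 3. Since these genes were picked for following the 10 on the same arrays, shared high pools follow from the choice and are no separate support. Mean intensities of Rbm20 (114.8), Smyd1 (84.4), Kcnj5 (77.7), Hopx (120.5) and Pde1c (88.5) lay under the array medians. How far such signals stand above background is unknown.

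**Figure D3:**
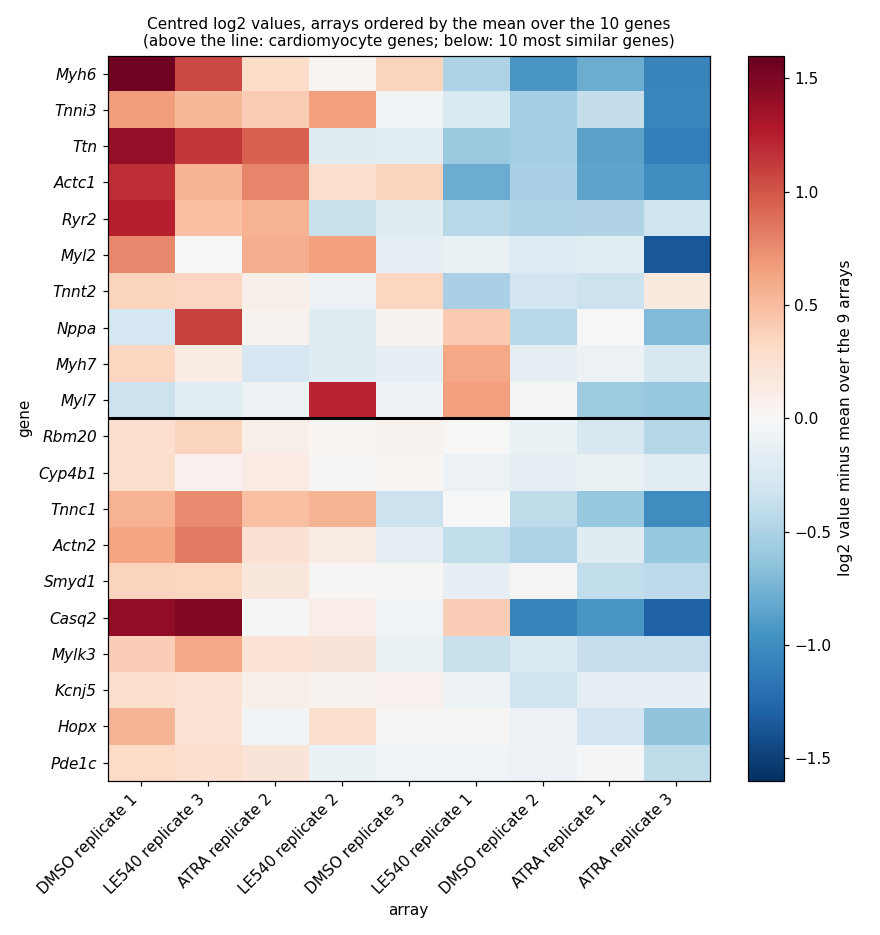
Log2 value minus the gene's mean over the 9 arrays (colour) for the 10 cardiomyocyte genes (above the black line) and the 10 genes most similar to them (below), with arrays ordered by the mean over the 10 genes. Myh6, Ttn and Actc1 run from DMSO replicate 1 on the left to ATRA replicates 1 and 3 on the right, and Myl7 has its highest value in LE540 replicate 2.

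Of a wider list of 22 sarcomere genes, 21 were measured and 0 were called in any comparison by limma. With ATRA against DMSO 11 were higher and 10 lower (median 0.02), with LE540 14 and 7 (median 0.19) and for ATRA against LE540 7 and 14 (median -0.09). Their counts at an unadjusted p under 0.05 were 0, 2 and 0. The largest changes were in Myoz2, a Z-disc calcineurin-binding protein, with 0.83 (SE 0.41) for ATRA and 0.91 (SE 0.41) for LE540, and in Cmya5, with -0.66 and -0.73 (SE 0.32 each). Tnnc1 differed by -0.81 between ATRA and LE540 (SE 0.40, adjusted p = 0.581), at 1581 ± 888 and 2575 ± 644 (SD, n = 3). In Nexn, an actin-binding Z-disc protein, the sign was opposite, at 0.86 (SE 0.42).

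The 17 measured genes of calcium handling and ion channels were split 9 to 8, 9 to 8 and 6 to 11 between higher and lower, with medians of 0.00, 0.01 and -0.11 and 0 called (2, 3 and 2 at an unadjusted p under 0.05 in limma). Casq2 had the largest change in each comparison. It was -0.85 with ATRA (SE 0.62, limma adjusted p = 0.999) and 0.57 with LE540 (SE 0.62, adjusted p = 0.791). For ATRA against LE540 it was -1.41 (SE 0.62, adjusted p = 0.526). Next in size with ATRA was Jph2, which ties the sarcoplasmic reticulum to the cell membrane, at 0.52 (SE 0.28). With LE540 it was Cacna1c, the L-type calcium channel, at -0.42 (SE 0.17). For ATRA against LE540 it was Trdn, triadin, at 0.49 (SE 0.62), read from the brightest of its 19 probe sets. Pln, phospholamban, the brake on the calcium pump of the sarcoplasmic reticulum, had the widest range among these genes, 9.42-fold. It stood at 1464, 436 and 543 in DMSO, 395, 946 and 319 in ATRA and 159, 670.0 and 1495 in LE540. Each group's high pool was the one that was high for Myh6, and LE540 replicate 1 had the lowest value.

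Cardiac transcription factors, with Nppb, were measured for 15 of 16 genes and split 7 to 8, 7 to 8 and 8 to 7, with medians of -0.01, -0.05 and 0.06 and 0 called (0, 1 and 1 at an unadjusted p under 0.05 in limma). Tbx20, which valve interstitial cells also express, had the largest change with LE540, -1 (SE 0.47, adjusted p = 0.583). Mef2a had -0.48 with ATRA (SE 0.25), Mef2c -0.53 with LE540 (SE 0.32) and Prox1 0.57 for ATRA against LE540 (SE 0.45). Genes of muscle energy metabolism (17 of 18 measured) split 9 to 8, 9 to 8 and 8 to 9, with medians of 0.02, 0.00 and -0.05 and 0 called (0, 3 and 3 at that p). Cox6a2, the muscle isoform of a cytochrome oxidase subunit, had a change of 0.90 with LE540 (SE 0.19, limma adjusted p = 0.328), at 470 ± 31.9 against 253 ± 41.7 in DMSO (SD, n = 3). Fabp3, the muscle fatty acid carrier, and Pdk4, a brake on glucose oxidation, had changes of 0.85 (SE 0.38) and 0.64 (SE 0.30) with ATRA, and neither passed. Cox8b, another oxidase subunit of muscle, had 0.96 with LE540 (SE 0.41), and for ATRA against LE540 Pdk4 had 1 (SE 0.30) and Cox7a1 -0.75 (SE 0.38).

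The intercalated disc and costamere list (14 of 15 measured) held the only call among the wider lists. With ATRA against DMSO 10 were higher and 4 lower (median 0.10), with LE540 4 and 10 (median -0.13) and for ATRA against LE540 10 and 4 (median 0.34), with 1, 3 and 5 at an unadjusted p under 0.05. Jup, plakoglobin, a junction protein that many other cell types carry too, was higher with ATRA than with LE540 by 1.39 (SE 0.20, limma adjusted p = 0.0384). Its arrays read 287, 374 and 307 in DMSO, 497, 526 and 556 in ATRA and 149, 262 and 206 in LE540, so ATRA lay above all other pools and LE540 below them. Leaving out single arrays gave 1.18 to 1.59. The call was lost without ATRA replicate 1 or ATRA replicate 3 (adjusted p up to 0.137). Its correlation with the 10 cardiomyocyte genes was -0.42. Xirp2, an actin-binding protein of the disc, had 200, 44.9 and 139 in LE540 and 32.3 to 46.6 in all other groups' pools, a change of 1.35 (SE 0.46, adjusted p = 0.541) in the same 2 pools that were highest for Nppa.

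The chamber lists contain some of the 10 genes. Of 11 atrial-enriched genes, among them Myl7 and Nppa, 8 were higher and 3 lower with ATRA, 8 and 3 with LE540 and 3 and 8 for ATRA against LE540, with medians of 0.03, 0.11 and -0.11 and 0 called. Their counts at an unadjusted p under 0.05 in limma were 0, 0 and 3. Gja5, a gap junction channel of the atrium, the conduction system and arterial endothelium, had changes of -0.87 with ATRA and -0.69 with LE540 (SE 0.52 each). Myl4, the atrial essential light chain, had 0.38 with ATRA (SE 0.39), and Dkk3 0.76 for ATRA against LE540 (SE 0.28, adjusted p = 0.44). Sln, an atrial regulator of the calcium pump, and Bmp10, a growth factor of developing heart muscle, showed low intensities throughout, 53.8 to 69.2 for Sln and 22.6 to 33.7 for Bmp10, near or under the lower quartile of the arrays (57.7 to 63.0). Of 8 ventricular-enriched genes, among them Myl2 and Myh7, 3 were higher with ATRA, 5 with LE540 and 2 for ATRA against LE540, with medians of -0.03, 0.05 and -0.11, 0 called and 0 at an unadjusted p under 0.05. Myl3, the ventricular essential light chain, had 1050, 649.6 and 450.4 in DMSO, 711, 1268 and 356 in ATRA and 817, 1766 and 973 in LE540. Its top array, LE540 replicate 2, was also the top for Myl7 and for Mb, myoglobin, at 946. Lbh had 0.43 with ATRA (SE 0.29) and 0.58 for ATRA against LE540 (SE 0.29), and Hey2, a Notch target of the compact ventricle, -0.50 with LE540 (SE 0.29).

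Other muscle was gauged by 15 skeletal muscle genes. Their summed intensity was 1666 to 1747 in DMSO, 1628 to 1638 in ATRA and 1596 to 1866 in LE540, with 8 to 10 of the 15 under the array median on each array. Their median ratio of highest to lowest array was 1.32 and the largest 2.29, for Mylpf. With ATRA 4 of the 15 were higher, with LE540 9 and for ATRA against LE540 3, with medians of -0.05, 0.06 and -0.08, 0 called and 0 at an unadjusted p under 0.05 in limma. The 10 smooth muscle genes had sums of 2312 to 4176, 3958 to 7594 and 2317 to 3419, and 9, 6 and 9 were higher, with medians of 0.25, 0.04 and 0.22 and 0 called (1, 0 and 1 at that p). The highest smooth muscle sum was in ATRA replicate 3, the lowest array of the cardiomyocyte genes, and the lowest in DMSO replicate 1, their highest; the median correlation of the smooth muscle genes with them was -0.49. The part of these differences between pools in any result above was not tested.

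Among cells of the valve itself, the 15 interstitial genes were higher with ATRA in 11, lower with LE540 in 13 and higher for ATRA against LE540 in 14, with medians of 0.25, -0.24 and 0.54, and Vcan, the proteoglycan versican, was called for ATRA against LE540 at 1.29 (SE 0.21, limma adjusted p = 0.0608; lost without any of 6 single arrays, adjusted p up to 0.192). The 12 endothelial and endocardial genes were higher in 12, 4 and 12, with medians of 0.48, -0.03 and 0.44 and sums of 2039 to 3740.0 in DMSO, 2812 to 6258 in ATRA and 1799.5 to 3690.3 in LE540. ATRA replicate 2, the high ATRA pool of the cardiomyocyte genes, had the top endothelial sum, whereas DMSO replicate 1 had the lowest of its group. Npr3, a natriuretic peptide receptor of endocardium, was called for ATRA against LE540 at 0.83 (SE 0.15, adjusted p = 0.0901; lost without any of 7 single arrays, up to 0.263). Their share in the results for cardiomyocyte genes was not tested.

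The remaining marker lists concern cells that could adhere to the valve. Of 10 epicardial and mesothelial genes 8, 4 and 7 were higher, and Krt18, a simple-epithelium keratin, was called for ATRA against DMSO (1.82, SE 0.25, limma adjusted p = 0.0808) and against LE540 (1.83, SE 0.25, adjusted p = 0.0313). The first call was lost without any single one of the 9 arrays (adjusted p 0.111 to 0.260), the second without ATRA replicate 1 or LE540 replicate 1 (up to 0.107). In limma 0 genes of the other lists were called, with 0 to 2 a list and comparison at an unadjusted p under 0.05. Higher counts in the 3 comparisons were 5, 2 and 8 of 12 macrophage genes, 2, 2 and 1 of 3 measured erythroid genes, 6, 6 and 3 of 7 adipocyte genes, 4, 3 and 3 of 5 measured Schwann and neural crest genes and 4, 5 and 3 of 6 melanocyte genes.

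**Figure D4:**
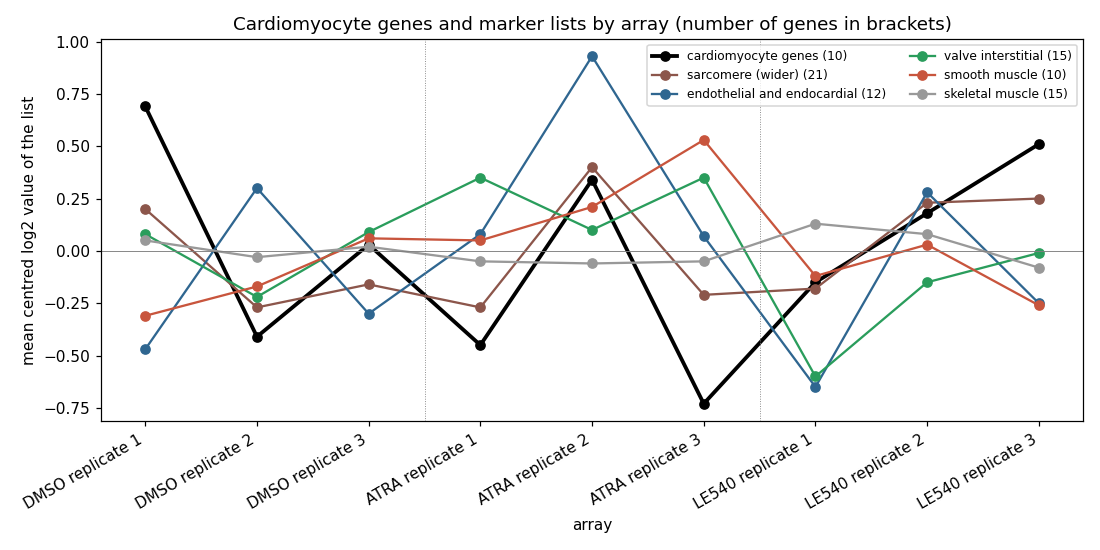
Mean centred log2 value of the cardiomyocyte genes and of 5 other gene lists (y axis) in each of the 9 arrays (x axis), with dotted lines between treatments; lines join the points of a list only to guide the eye. The cardiomyocyte genes reach 0.69 in DMSO replicate 1 and -0.73 in ATRA replicate 3, the skeletal muscle list stays between -0.08 and 0.13, and the endothelial list peaks in ATRA replicate 2.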

How the data were processed

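RNA of 9 pools of valves was amplified and labelled per the labels' protocols, and hybridised to 1 array each, 3 per group. The deposited values are linear probe set intensities, made by the authors with Affymetrix Expression Console 1.1 and RMA, per the submitters' processing notes; genome build and background filters are not given in the sources used here. RMA equalises the arrays' distributions, so a change of total RNA cannot be seen. Of 28270 rows, 23397 had a listed gene (21780 with 1 symbol, 1617 with several) and were tested; the others were not named. Log2 values were fitted with limma 3.58.1 (R 4.3.3) in 1 model of 3 groups over 9 arrays, with 6 residual degrees of freedom and Benjamini-Hochberg adjustment over all 23397. The threshold, adjusted p under 0.1 with over 2-fold as an alternative, follows the series' design text. The script was checked on simulated data.

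The text names the 10 members, in each wider list the genes called or otherwise the largest changes, and the 10 most similar named genes. A listed gene with several probe sets was represented by the one with the highest mean log2 over all arrays, and its other probe sets are not described. The members and lists were chosen with earlier results of these data known. The rule on wider lists was not kept for Pln, Mb, Sln and Bmp10, or Postn, Col1a1 and Vim, which were named after their values were seen. Same-numbered pools deviated together for ATRA and DMSO (r = 0.143, 0.342 and 0.22 over probe sets) and for ATRA and LE540 (0.261, 0.282 and 0.269), so the numbers were taken to pair these groups, from the data only, but not LE540 and DMSO (0.00946, 0.215 and 0.126). Promoters are RefSeq windows of GRCm38.p6. The number of arrays limits the precision.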

Additional observations from a re-analysis of the deposited data

How the results depend on the processing

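The count of cardiomyocyte genes called was 0 in the 20 settings tried for ATRA against DMSO and for LE540 against DMSO, in 19 of 20 for ATRA against LE540 and in 17 of 17 for the F test. Leaving out single arrays gave 0 to 1 for ATRA against LE540, and the 1 was Myl7 without LE540 replicate 3. The median change over the 10 genes ranged over all settings from -0.66 to -0.06, -0.29 to 0.41 and -0.93 to -0.18 in the 3 comparisons. With the replicate number as a block, 0 genes were called in all, the lowest adjusted p values were 0.871, 0.384, 0.19 and, for F, 0.31, the medians were -0.32, -0.04 and -0.47, and the block changed no call of Jup, Vcan, Npr3 or Krt18. Array weights turned Nppa to -0.21 for ATRA against DMSO, Ttn to 0.01 for LE540 against DMSO and Ryr2 to -0.04 for ATRA against LE540, and quantile normalization turned Myl2 to -0.04 for LE540 against DMSO; the cause was not tested. Leaving out single arrays crossed 0 in Ttn (-1.22 to 0.02), Nppa (-0.14 to 0.25), Ryr2 (-0.60 to 0.26) and Myl2 (-0.90 to 0.06) for ATRA against DMSO. For LE540 against DMSO it crossed 0 in Myh6 (-0.76 to 0.49), Actc1 (-0.76 to 0.09), Ttn (-0.63 to 0.48), Ryr2 (-0.63 to 0.23), Tnni3 (0.00 to 0.61), Myl2 (-0.20 to 0.35) and Myh7 (-0.06 to 0.35). For ATRA against LE540 it did so in Ryr2 (-0.30 to 0.32), Tnnt2 (-0.14 to 0.29), Myl2 (-0.94 to 0.03) and Ttn (-1.10 to 0.05). Genes that lay under the median of all values had no value when only probe sets above it were tested. How far the signal of Myl7, Myh7, Nppa and the like stands above background is unknown here.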
